A study of Mus musculus with 11 samples.

Results

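Alas2, Sptb and Ppbp are genes of red blood cells and platelets that were read in RNA from spleen dendritic cells. They were taken by gene symbol from the deposited expression table, and all 3 had a row among its 417 gene rows. Alas2 encodes the erythroid form of 5-aminolevulinate synthase, the enzyme that starts haem synthesis in developing red cells. Sptb encodes the beta chain of erythrocyte spectrin, a protein of the mesh beneath the red cell membrane. Ppbp, also called Cxcl7, encodes pro-platelet basic protein, a CXC chemokine precursor stored in platelet alpha granules.

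The cells came from mice with 1 copy of the UMOD C105F allele, in which phenylalanine replaces a cysteine of uromodulin (C105F/+, replicates 2 to 6, n = 5), and from wild type littermates (replicates 1 to 6, n = 6). C106F also stands for this change in the labels. All mice were C57BL/6J, were killed at 12 to 16 weeks of age and carried no further allele or treatment in the labels, which give neither sex nor batch. Spleens were digested with collagenase, dendritic cells were kept by immunomagnetic removal of other cells, and 75 ng of total RNA per library was enriched on oligo(dT) beads. The point mutation was made in embryos with CRISPR/Cas9. Whether every library is a separate animal is not said outright in the labels, and the p-values below measure only how the libraries spread.

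Red cells and platelets both descend from progenitors that divide in bone marrow and, in the mouse, also in the spleen. Maturing red cells make large amounts of haem and of membrane skeleton, and reticulocytes keep their RNA for a short time after losing the nucleus. Platelets have no nucleus and carry RNA left from the megakaryocyte. The spleen also clears old red cells and holds platelets, so transcripts of both lineages are present in that organ.

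Alas2 (Entrez 11656) lies on chromosome X from 150547417 to 150570622, plus strand, and its transcripts have 11 exons and lengths of 1892 and 2037 bases. Sptb (Entrez 20741) lies on chromosome 12 from 76580488 to 76710547, minus strand, with 36 exons and a transcript of 10394 bases. Ppbp (Entrez 57349) lies on chromosome 5 from 90768518 to 90770063, plus strand, with 3 exons and a transcript of 1083 bases. Positions are from RefSeq on GRCm38.p6, the assembly also called mm10. Exon counts and lengths are those of the GENCODE transcripts matched to the RefSeq transcripts of the deposited rows. Apex2 is annotated over Alas2 on the opposite strand, and the counting is not stated to use strand, so reads of these genes may not be fully apart. Pf4, Cxcl5, Cxcl3 and Cxcl15 lie within 50 kb of Ppbp, and none of the 11 genes found that near to the members had a row.

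The 250 bases before each annotated start, from RefSeq on GRCm38.p6, are shown because Alas2 and Sptb varied together between libraries and Ppbp less so. Capitals mark matches to 3 motifs, searched on both strands. The GATA motif had the forms AGATAA or else AGATAG and, with T first, TGATAA or else TGATAG, the core bound by GATA1, a factor of both lineages. The CACCC motif was CCNCNCCC, bound by KLF1 and its relatives, and it also takes GC boxes. The CArG box is bound by serum response factor, and it was chosen after the sequences were read. Overlapping matches share their capitals.
Alas2 (chrX:150547167-150547416, plus strand): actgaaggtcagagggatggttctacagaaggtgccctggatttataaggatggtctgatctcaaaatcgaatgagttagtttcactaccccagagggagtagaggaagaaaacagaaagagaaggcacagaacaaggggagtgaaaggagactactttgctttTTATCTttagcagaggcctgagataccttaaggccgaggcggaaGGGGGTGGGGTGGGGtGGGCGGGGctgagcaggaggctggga
Sptb (chr12:76710548-76710797, minus strand): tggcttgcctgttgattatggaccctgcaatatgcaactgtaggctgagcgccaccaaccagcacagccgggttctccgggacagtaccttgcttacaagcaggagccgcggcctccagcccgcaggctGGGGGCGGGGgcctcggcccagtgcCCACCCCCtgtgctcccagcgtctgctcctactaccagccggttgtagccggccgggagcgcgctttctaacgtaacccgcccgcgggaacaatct
Ppbp (chr5:90768268-90768517, plus strand): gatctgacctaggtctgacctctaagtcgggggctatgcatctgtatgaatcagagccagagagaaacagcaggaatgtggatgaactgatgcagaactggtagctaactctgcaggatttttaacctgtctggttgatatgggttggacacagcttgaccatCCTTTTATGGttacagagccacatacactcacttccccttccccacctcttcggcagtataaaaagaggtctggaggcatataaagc
Alas2 had 1 GATA match, which began 86 bases before the start, and 4 CACCC matches. Sptb had 3 CACCC matches and 1 GATA match that began at base 13 after the start, outside the stretch shown. Ppbp had a CArG box that began 87 bases before the start and no GATA or CACCC match. Among all 32851 RefSeq promoter windows of 300 bases, 29.8% held the GATA motif, 49.5% the CACCC motif and 1.63% the CArG box. The matches describe these letters and were not tested for binding.

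Read totals per library are not in the table. The reads on its rows added up to 195414 in wild type 1, the lowest, and 1198500 in C105F/+ 2, the highest. Size factors, a measure of relative depth, were recovered from the deposited means and were 0.615 and 1.98 in these libraries. Scaled counts below are read counts divided by these factors. The rows had been picked by the authors on fold (2 or more either way) and on raw p (below 0.05) between the genotypes, so each member was selected for its difference in that comparison. Umod had no row that could serve as a check of genotype. Of 19 dendritic cell markers only Itgae and Pacsin1 had rows, and Itgax, Flt3 and Zbtb46 were not analysed here.

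Alas2 had the most reads of the 3 genes and was uneven within C105F/+. In C105F/+ it had 3073 scaled counts in replicate 2, 512 in replicate 3, 245 in replicate 4, 1627 in replicate 5 and 1627 in replicate 6. In wild type it had 953, 787, 657, 141, 449 and 268 in replicates 1 to 6. C105F/+ 2, 5 and 6 lay above every wild type library, C105F/+ 3 and 4 lay inside the wild type range, and the groups overlapped. The C105F/+ mean was 1417 ± 1121 (SD, n = 5) and the wild type mean was 543 ± 312 (SD, n = 6). The highest C105F/+ library had 12.5 times the Alas2 of the lowest, a wider gap than the 2.61-fold ratio of the group means.

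Sptb followed the same libraries. It had 1011, 135, 133, 654 and 618 scaled counts in C105F/+ 2 to 6. Wild type 1 to 6 had 330, 292, 147, 42.9, 164 and 130. Again C105F/+ 2, 5 and 6 stood above all wild type libraries, while C105F/+ 3 and 4 lay close to the lower wild type libraries. The mean was 510 ± 376 in C105F/+ against 184 ± 107 in wild type, a ratio of 2.77.

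Ppbp was more even within C105F/+. It had 218, 111, 138, 222 and 206 scaled counts in C105F/+ 2 to 6. Wild type 1 to 6 had 158, 152, 62.1, 27.2, 36.2 and 101. The same 3 C105F/+ libraries were above all wild type libraries, and C105F/+ 3 and 4 were above wild type 3 to 6 but below wild type 1 and 2. The mean was 179 ± 50.8 in C105F/+ against 89.4 ± 56.8 in wild type, a ratio of 2.00. The lowest value, in wild type 4, rested on 26 reads, and its exact Poisson 95% interval of 17.8 to 39.9 scaled counts covers counting error only. That interval lies below those of wild type 1, 2, 3 and 6 and overlaps that of wild type 5.

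**Figure D1:**
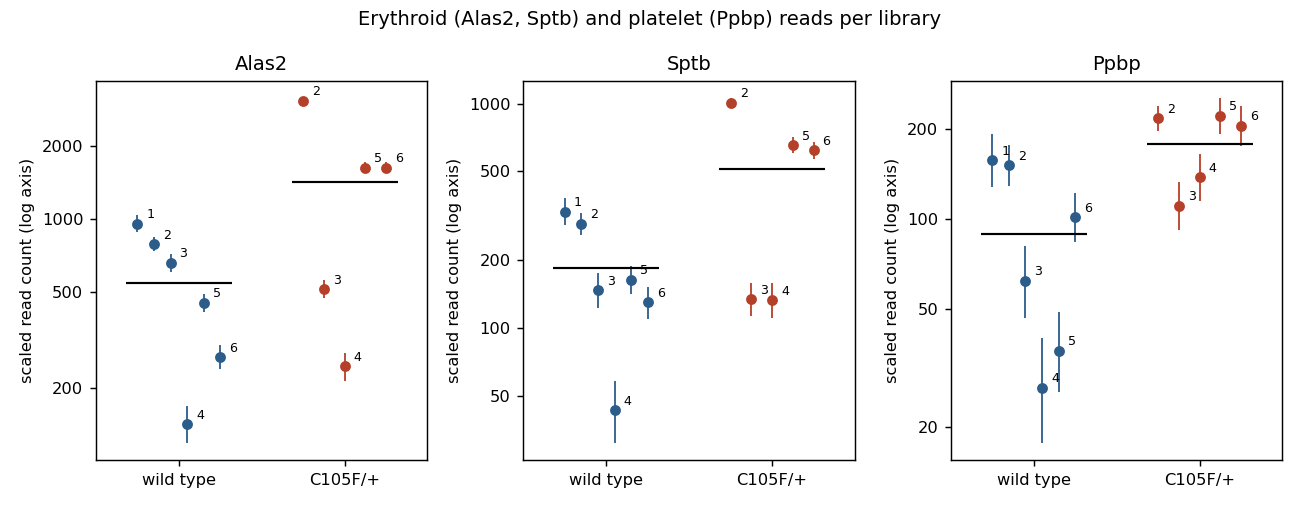
Scaled read counts (log axis) of Alas2, Sptb and Ppbp in each library, with the replicate number beside each point, exact Poisson 95% intervals as bars and the arithmetic group mean as a line. C105F/+ 2, 5 and 6 sit above all wild type points in each panel, C105F/+ 3 and 4 sit within the wild type range, and wild type 4 is lowest.

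The spread within C105F/+ differed in size between the genes. The coefficient of variation among the 5 libraries was 79.1% for Alas2, 73.8% for Sptb and 28.4% for Ppbp. Across the 322 rows that passed edgeR's filter on low counts the median was 44.3%, and 89.8%, 87.0% and 19.3% of these rows had a lower value than Alas2, Sptb and Ppbp. In wild type the coefficients were close, 57.5%, 58.2% and 63.5%, around a median of 56.8%. All 3 members passed the filter. These coefficients are a description, and their difference was not tested.

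The difference between genotypes was tested over the whole table with edgeR's quasi-likelihood test (two-sided, Benjamini-Hochberg adjustment over 322 rows). For Alas2 the log2 fold change was 1.39 (SE 0.59, edgeR adjusted p = 0.0466), and for Sptb it was 1.47 (SE 0.59, edgeR adjusted p = 0.0411). Ppbp, with 1.00 (SE 0.50), did not pass (edgeR adjusted p = 0.0647). So 2 of 3 members were called, against 74.5% of the rows tested in either direction and 52.5% called higher, in a table selected on the same comparison, so nothing particular to the members is read from it. Of the 240 rows called, 169 were higher and 71 lower, a split of 8 and 106 under TMM scaling and of 12 and 91 under median-of-ratios scaling on the deposited rows. The median log2 fold change of the 3 members was 1.39, beside 1.11 over all rows tested and 1.37 over the 210 of them that were higher in C105F/+.

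By the exact two-sided permutation test over all assignments of libraries to genotypes, on log2(scaled count + 1), the genes stood in another order. Ppbp passed with a difference of 1.23 (exact permutation p = 0.0433), while Alas2 (1.15, p = 0.158) and Sptb (1.28, p = 0.119) did not. The Ppbp result was kept when C105F/+ 3, wild type 1 or wild type 2 was left out and lost when any other library was (exact permutation p 0.0524 to 0.0857). Thus 1 of 3 members had a permutation p under 0.05, against 67.6% of the 417 rows. No member separated the groups fully, against 13.4% of rows. In the authors' deposited table the adjusted p was 0.168 for Alas2, 0.136 for Sptb and 0.203 for Ppbp, none under 0.05, against 37.6% of the 295 rows with an adjusted p.

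These calls changed when single libraries were left out and when the scaling was changed. Without C105F/+ 2 the ratio of group means was 1.85 for Alas2 and 2.09 for Sptb, and the edgeR adjusted p became 0.154 and 0.108. The Alas2 call was also lost without C105F/+ 5 or 6 or without any of wild type 2 to 6 (adjusted p 0.0542 to 0.0868), and the Sptb call without C105F/+ 5 or 6 or wild type 3, 5 or 6 (0.0576 to 0.0833). Ppbp moved the least, from 1.76 without wild type 4 to 2.36 without wild type 1. Under TMM scaling on the selected rows, which shifts the median log2 fold change by -0.96, the log2 fold change of Ppbp was -0.018. TMM takes most rows as unchanged, while these rows were all picked for a difference, so no conclusion on Ppbp is drawn from that value.

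**Figure D2:**
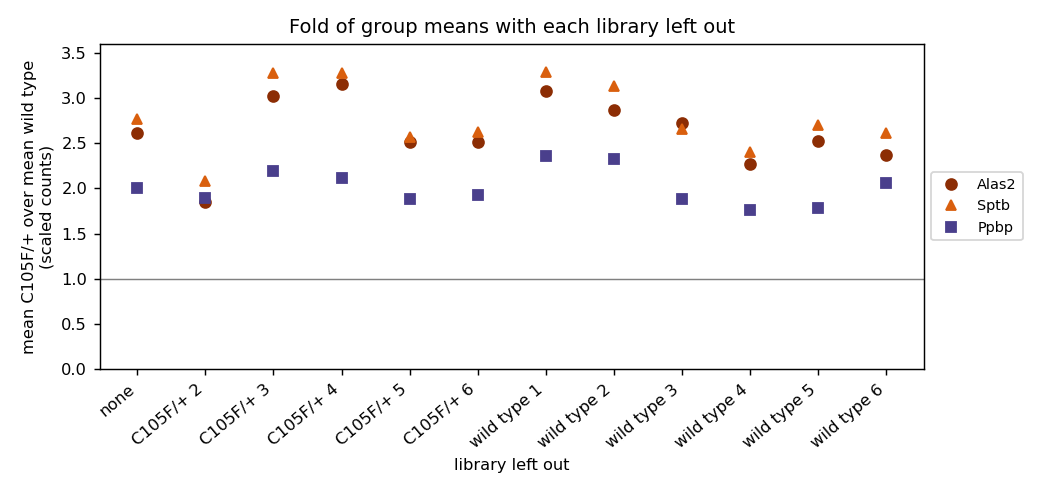
Ratio of the C105F/+ mean to the wild type mean of scaled counts for the 3 genes, with all libraries (none) and with each library left out in turn. All ratios lie above 1 on this scaling, and Alas2 and Sptb drop most without C105F/+ 2 (1.85 and 2.09). Under TMM scaling, run on rows all picked for a difference, the log2 fold change of Ppbp is -0.018.

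Levels of different genes can be set side by side only per length, and the deposited FPKM values (fragments per kilobase of transcript, scaled to library size) were used for this. A unit of FPKM took 5.27 times as many reads for Sptb as for Alas2, and 0.550 times as many for Ppbp, in the order of the transcript lengths. In FPKM, Alas2 had 14.9 ± 12.3 in C105F/+ and 4.75 ± 2.43 in wild type. Ppbp had 3.35 ± 1.11 and 1.42 ± 0.834. Sptb was lowest with 1.02 ± 0.784 and 0.306 ± 0.158. The order Alas2, Ppbp, Sptb held in 10 of 11 libraries. In C105F/+ 4, Ppbp with 2.52 FPKM and Alas2 with 2.44 were level.

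Erythroid and platelet signal did not keep a fixed ratio from library to library. The Alas2 to Ppbp ratio of FPKM was 7.75, 2.58, 0.972, 4.03 and 4.35 in C105F/+ 2 to 6. In wild type 1 to 6 it was 3.35, 2.85, 5.90, 2.87, 6.80 and 1.45. On the log2 scale the mean was 1.68 ± 1.12 in C105F/+ and 1.77 ± 0.807 in wild type, and the genotypes overlapped over nearly their whole ranges. The Sptb to Ppbp ratio gave log2 means of -2.15 ± 0.965 and -2.18 ± 0.625. The genotype means of both ratios thus lay well within 1 SD of each other, with no test made.

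The erythroid pair was steadier. The Alas2 to Sptb ratio ran from 9.74 in C105F/+ 4 to 23.7 in wild type 3, a 2.43-fold range over all 11 libraries, against 7.97-fold for Alas2 to Ppbp and 4.85-fold for Sptb to Ppbp. The SD within genotype of the log2 ratio was 0.38 for Alas2 to Sptb, 0.96 for Alas2 to Ppbp and 0.79 for Sptb to Ppbp. The high erythroid libraries did not share 1 ratio to Ppbp with the others: wild type 5 and wild type 3 had Alas2 to Ppbp ratios near those of C105F/+ 2 at far lower levels of both genes. There the platelet gene was low, with 0.629 and 0.981 FPKM.

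**Figure D3:**
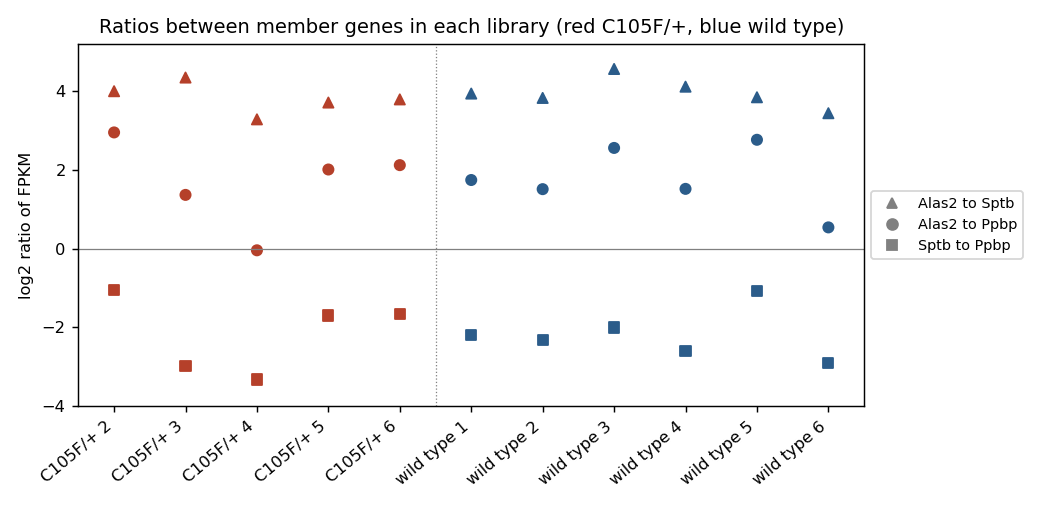
Log2 ratios of deposited FPKM values between the member genes in each library, with triangles for Alas2 to Sptb, circles for Alas2 to Ppbp and squares for Sptb to Ppbp. The triangles stay between 3.28 and 4.57, while the circles run from -0.042 in C105F/+ 4 to 2.95 in C105F/+ 2.

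Whether the genes varied together within a genotype was not used to select the rows, though the raw p used for it depends on the spread within genotype. The relation is thus not fully free of the selection. Each genotype's mean was subtracted from log2(scaled count + 1), and the deviations were correlated over 11 libraries, with 100000 permutations of libraries within genotype and adjustment over the 3 pairs. Alas2 and Sptb had Pearson r = 0.954 (permutation p = 0.00014, adjusted p = 0.00042) and Spearman rho = 0.973 (permutation p = 0.00018, adjusted p = 0.00054). For Sptb and Ppbp r was 0.757 (permutation p = 0.00177, adjusted p = 0.00265) and rho 0.709 (permutation p = 0.0164, adjusted p = 0.0164). Alas2 and Ppbp had r = 0.648 (permutation p = 0.0173, adjusted p = 0.0173) and rho = 0.691 (permutation p = 0.0163, adjusted p = 0.0164). All 3 relations are positive, and both genes of a pair share their library's size factor. The p-values compare r with shuffled libraries and not with other rows. The median r over 334 other rows was 0.20 with Alas2, 0.24 with Sptb and 0.05 with Ppbp. Among these rows Ppbp ranked 42 by likeness to Alas2 and 32 by likeness to Sptb.

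Within the 6 wild type libraries alone r was 0.938 for Alas2 and Sptb (exact permutation p = 0.00417, adjusted p = 0.0125), with rho = 0.943 (exact permutation p = 0.0167, adjusted p = 0.05). It was 0.825 for Sptb and Ppbp (exact permutation p = 0.0306, adjusted p = 0.0458), with rho = 0.771 (exact permutation p = 0.103, adjusted p = 0.103). For Alas2 and Ppbp it was 0.709 (exact permutation p = 0.126, adjusted p = 0.126), with rho = 0.829 (exact permutation p = 0.0583, adjusted p = 0.0875). No correlation was computed over the 5 C105F/+ libraries alone, since at least 6 were asked for. Leaving out the 2 libraries farthest from the median of the first gene, C105F/+ 4 and wild type 4 for each pair, gave r = 0.929 for Alas2 and Sptb (exact permutation p = 0.00208). It gave 0.658 for Sptb and Ppbp (exact permutation p = 0.0236) and 0.542 for Alas2 and Ppbp (exact permutation p = 0.106). For Alas2 with Ppbp the relation was thus lost without both libraries. It was also lost without wild type 4 alone (r = 0.507, permutation adjusted p = 0.0681) and kept without C105F/+ 4 alone (r = 0.714, permutation adjusted p = 0.0264).

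**Figure D4:**
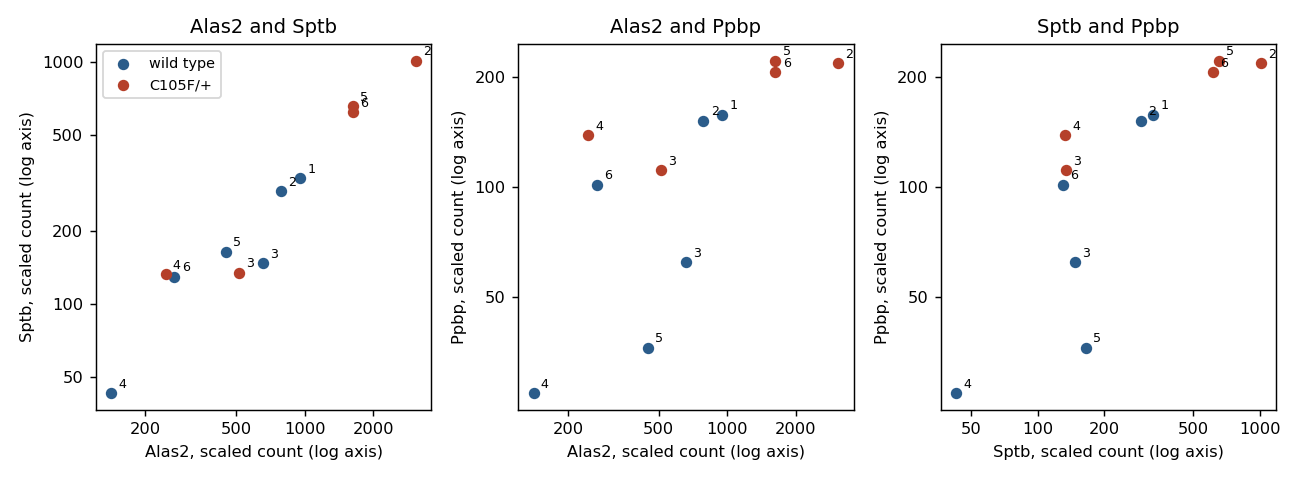
Scaled counts (log axes) of each pair of genes in the 11 libraries, with replicate numbers. Alas2 and Sptb fall along a narrow band across both genotypes, whereas Ppbp is spread more widely at a given erythroid level, with wild type 3 and 5 low and C105F/+ 4 and wild type 6 high.

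The rows most like each member were found with the same deviations among 334 other rows with a mean of at least 10 scaled counts. For Alas2 these were Sptb, which ranked 1, then G0s2 (r = 0.898), Trem1 (0.893), Dyrk3 (0.875) and Slco2b1 (0.868), against a median of 0.20 over all rows ranked. G0s2 encodes an inhibitor of triglyceride breakdown, Trem1 a receptor of neutrophils and monocytes, Dyrk3 a protein kinase and Slco2b1 an organic anion transporter. For Sptb they were Alas2, Ctse (0.939), Cd300e (0.906), Slco2b1 (0.894) and Bmx (0.880), with a median of 0.24 over all rows. Ctse encodes the aspartic protease cathepsin E, Cd300e a receptor of monocytes and Bmx a tyrosine kinase.

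The rows most like Ppbp were different ones. They were the histone genes Hist1h4c (r = 0.848), Hist1h4a (0.831) and Hist1h1a (0.809), the keratin gene Krt10 (0.824) and 4930405A21Rik (0.804), against a median of 0.05. Each of these 5 had a lower mean in C105F/+ than in wild type, opposite to the mean of Ppbp, so the likeness is one of deviations within genotype and not of the genotype difference. Hist1h4c had 286 and 92.2 scaled counts in wild type 1 and 2 and 8.38 in wild type 4, the libraries that were high and low for Ppbp. Without wild type 4 the r of Hist1h4c with Ppbp was 0.754. Sptb ranked 14 and Alas2 ranked 32 among the rows by likeness to Ppbp.

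Few other genes listed for these lineages had rows. Rows not on the lists, Dyrk3 and Ctse among them, were not assigned to a lineage. Of 52 erythroid genes listed, 2 were rows, Alas2 and Sptb. The globin genes, Slc4a1, Klf1 and Ank1 were not analysed here. Alas2 was the only row among 23 genes of haem synthesis and iron supply, and Sptb the only one among 21 of the red cell membrane skeleton. No count over these lists can therefore say more than the members do. None of 14 markers of red pulp macrophages, the cells that take up old red cells, had a row.

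Of 43 megakaryocyte and platelet genes 3 had rows, Ppbp, Gp6 and F13a1, and 1 of the 2 tested was called higher by edgeR, against 52.5% of all rows tested. Gp6 encodes glycoprotein VI, the platelet receptor for collagen. It had 13, 0, 13, 12 and 6 reads in C105F/+ 2 to 6 and 0 in all 6 wild type libraries. Against a floor of 3 reads over the wild type group it was at least 14.9-fold higher (exact permutation p = 0.0152), and edgeR's filter left it out. That p is for the comparison on which the row was picked, and 67.6% of the 417 rows had a permutation p under 0.05. The authors gave Gp6 no adjusted p. C105F/+ 4, which was low for both erythroid genes, had as many Gp6 reads as C105F/+ 2 at a lower depth (14.2 against 6.57 scaled counts), and C105F/+ 3 had none.

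F13a1 encodes the A subunit of coagulation factor XIII and is made by platelets and by monocytes. It had 370, 113, 22.9, 254 and 289 scaled counts in C105F/+ 2 to 6 and 33.2 to 158 in wild type. Its log2 fold change was 1.43 (edgeR adjusted p = 0.0434, exact permutation p = 0.167). The edgeR call was lost without C105F/+ 2, 5 or 6 or without wild type 2, 3, 5 or 6, and under TMM scaling (0.37, edgeR adjusted p = 0.688), median-of-ratios scaling (0.53, edgeR adjusted p = 0.422), the replicate block and each limma fit. F13a1 was lowest in C105F/+ 4, the library with the lowest Alas2 among C105F/+.

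Among 23 CXC chemokines and receptors 2 had rows, Ppbp and Cxcr2, the receptor on neutrophils for the chemokine cut from pro-platelet basic protein. Cxcr2 had 704, 40.8, 67.5, 246 and 189 scaled counts in C105F/+ 2 to 6. In wild type it had 205 in replicate 4 and 32.7 to 68.3 in the others. Ligand and receptor thus differed in wild type 4, which among wild type libraries had the lowest Ppbp and the highest Cxcr2, while C105F/+ 2 and 5 had more Cxcr2. In the authors' deposited table the adjusted p of Cxcr2 was 0.120. The log2 fold change of Cxcr2 was 1.83 (edgeR adjusted p = 0.0386, exact permutation p = 0.0779), 2.54 without wild type 4 and 0.95 without C105F/+ 2 (edgeR adjusted p = 0.175). Its call was also lost without C105F/+ 5 or 6 or wild type 1, 2, 3, 5 or 6, and under TMM (0.73, edgeR adjusted p = 0.461), median of ratios (0.84, edgeR adjusted p = 0.328), the replicate block and each limma fit.

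Markers of other cells moved with the members in some libraries and not in others. Cxcr2 and G0s2 are also on the neutrophil list and F13a1 is on the monocyte list. The sums below hold only genes with a row, each picked for a difference between the genotypes. These were 7 of 14 plasma cell, 8 of 15 B cell, 5 of 14 neutrophil, 4 of 18 T cell and 5 of 12 NK cell genes. They were also 4 of 13 eosinophil, basophil and mast cell, 2 of 10 monocyte, 2 of 9 endothelial and 2 of 19 dendritic cell genes. The summed scaled counts of the 7 plasma cell rows, among them Jchain, ran from 19139 to 216940 in C105F/+ and from 21258 to 32200 in wild type. For the 8 B cell rows, among them Cd79a, the ranges were 2112 to 13555 and 1710 to 5721. For the 5 neutrophil rows, among them Mpo, they were 1152 to 28216 and 1014 to 7603. The 4 T cell rows, among them Cd28, summed to 250 to 1351 and 155 to 227, and the 5 NK cell rows, among them Il2rb, to 55.0 to 973 and 53.8 to 281. For 4 eosinophil, basophil and mast cell rows, led by Prg2, the ranges were 375 to 8372 and 340 to 1284. The 2 monocyte rows, Ace and F13a1, summed to 2000 to 10765 and 320 to 5266. Some sums were mostly 1 gene: in C105F/+ 2, Mpo gave 22630 of the 28216 neutrophil counts and Ace 9809 of the 10179 monocyte counts. The 2 endothelial rows, Cdh5 and Flt1, gave 569 to 1690 and 128 to 793, and the 2 dendritic cell rows, Itgae and Pacsin1, 1454 to 4885 and 168 to 1471.

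C105F/+ 2, 5 and 6 were the highest 3 libraries for the summed rows of every cell type above other than endothelial cells, dendritic cells included, as they were for Alas2, Sptb and Ppbp. High C105F/+ libraries are partly built into sums of rows picked for a genotype difference. The order therefore cannot be read as a gain of these cell types. C105F/+ 4 had 118760 plasma cell counts, against 32200 in the highest wild type library, while its Alas2 was below that of 5 wild type libraries. Jchain alone gave 103800 of these plasma cell counts in C105F/+ 4. Wild type 4 had the lowest Alas2, Sptb and Ppbp of all libraries. It also had the lowest dendritic cell (168), monocyte (320) and endothelial (128) counts of all libraries. Yet its B cell, NK cell, neutrophil and eosinophil, basophil and mast cell counts were the highest in wild type. The part of other cells and of depth in the differences of Alas2, Sptb and Ppbp was not tested. In RNA from many cells, fewer cells of a type and less RNA per cell cannot be told apart.

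**Figure D5:**
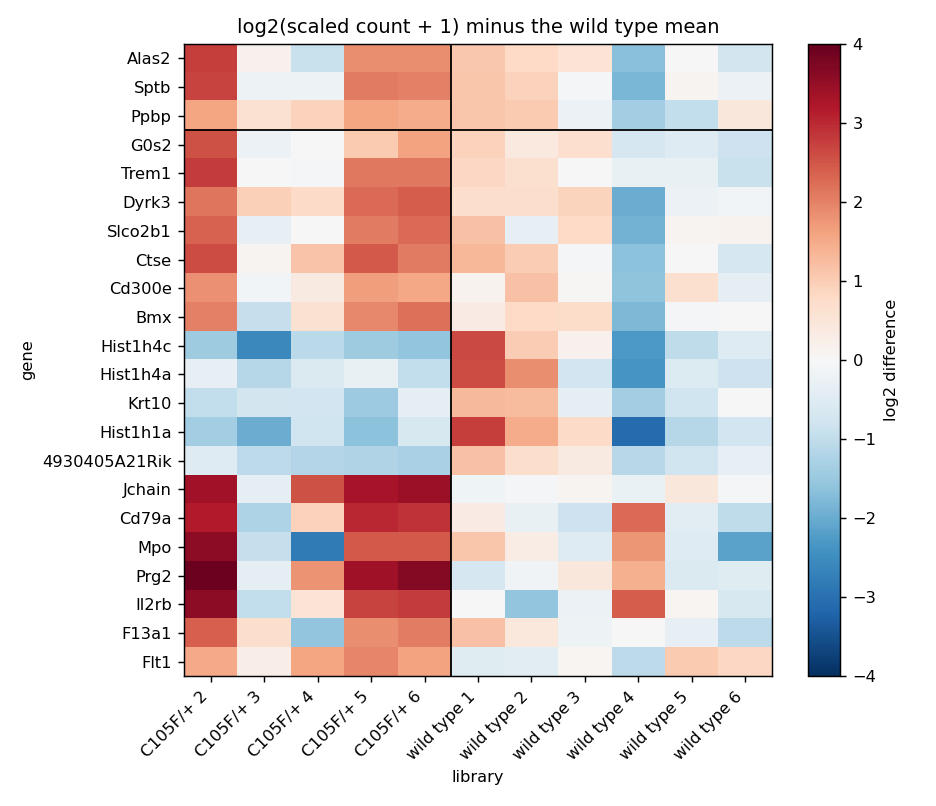
Log2(scaled count + 1) minus the wild type mean for the 3 genes (above the line), the rows most like them and markers of other cells, by library (C105F/+ left of the line). Alas2 and Sptb share their pattern with Trem1, Ctse and Slco2b1, the histone rows are high in wild type 1 and 2 and low in wild type 4, and Jchain is high in C105F/+ 4 where Alas2 is not.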

How the data were processed

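RNA of spleen dendritic cells was sequenced in 5 C105F/+ and 6 wild type libraries. The submitters' processing notes name HISAT2 2.1.0, StringTie 2.1.3b, FastQC 0.11.7, DESeq2, Trimmomatic 0.38 and Bowtie2 2.3.4.1, and the mm10 build, with no roles. Per the file headers, the deposited table gives each library's raw read counts, its FPKM and a log2 normalized value, the last by steps not stated in these sources. The authors' fold change carries a sign, a deposited score is the log2 fold change over its standard error, and the authors' mean is a signal on the scale of counts over size factors. The deposited p-values, raw and adjusted, are the authors' own. The rows are those with a fold of 2 or more either way and a raw p below 0.05.

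Size factors were recovered by least squares from the counts and deposited means (relative error under 1e-10). The quasi-likelihood test of edgeR 4.0.16 in R 4.3.3, checked on simulated data, was run after its default filter. The simulated rows had a preset spread and were not picked for a difference, so the check does not give the error rate here. The SE is the log2 fold change over the root of the F statistic. Exact permutation tests and correlations used a pseudocount of 1. Alternatives were other scalings, DESeq2 1.42.0, limma 3.58.1 on log2(FPKM + 1), log2(FPKM + 0.1) or the log2 values, no filter, the replicate block and leaving out libraries. Intervals cover counting error only, since PCR copies are not independent molecules.

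Members and lists were chosen with earlier results of these data known. Named genes are the members, all other rows of the erythroid, haem, membrane skeleton, platelet and CXC lists, the 5 rows most like each member, and the most abundant row of each other list.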

Additional observations from a re-analysis of the deposited data

Results flagged for a closer look

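Of 60 sets of values checked (the named genes and the log2 ratios, 30 items in each genotype), 6 had 1 library far from the rest of its group by Dixon's criterion. None was a member or a ratio of members. Chance gives about 1 in 20 for independent, normally distributed values. The scaled counts were not logged and some rows were chosen for their likeness to the members, so the 6 cannot be set against that rate. Wild type 4 was far above the other wild type libraries for Cxcr2 (205 scaled counts, next 68.3), Cd79a (2041, next 530), Il2rb (231, next 44.7) and Prg2 (1104, next 562). Wild type 1 stood above the others for Hist1h4c (286, next 92.2). C105F/+ 2 stood above its group for 4930405A21Rik (19.7, next 13.3).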

How the results depend on the processing

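The log2 fold changes of Alas2 and Sptb stayed positive under all 21 alternatives to each but lost an edgeR or limma adjusted p under 0.05 in 15 and 13 of them. TMM scaling on the deposited rows gave 0.25 and 0.32, and median-of-ratios scaling on them 0.46 and 0.53. These scalings shift the median of all rows by -0.96 and -0.76. Both take most rows as unchanged, while these rows were all picked for a difference. limma gave 1.16 and 0.54 on log2(FPKM + 1), 1.30 and 1.19 on log2(FPKM + 0.1), and 0.76 and 0.77 on the deposited log2 values. Without both C105F/+ 2 and wild type 4, chosen after seeing the data, the values were 0.69 and 0.86 (Ppbp 0.73), and the permutation differences of Alas2 and Sptb were 0.42 and 0.56. Leaving out each library gave 0.89 to 1.66 for Alas2, 1.06 to 1.72 for Sptb and 0.82 to 1.24 for Ppbp.

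Ppbp went from 1.00 to -0.018 under TMM. It passed with DESeq2 (1.00, adjusted p = 0.0487), limma on log2(FPKM + 1) (0.88), on log2(FPKM + 0.1) (1.32) and on the deposited log2 values (0.56), and with the scaling of the FPKM values (1.23), an alternative added after seeing the data; its edgeR and limma adjusted p ran from 0.0253 to 0.978 over all alternatives. By exact permutation its difference of 1.23 was 0.87 without C105F/+ 2 and wild type 4 (p = 0.135) and 0.95 to 1.45 leaving out each library, past p = 0.05 in 3 of 11. Alas2 ranged from 0.75 to 1.66 by permutation, past p = 0.05 only without C105F/+ 4 (p = 0.0476), and Sptb from 0.92 to 1.65, never past. The r of Alas2 with Ppbp was 0.54 without the 2 farthest libraries and 0.51 to 0.72 leaving out each library, with an adjusted p of 0.0681 without wild type 4. The r of Alas2 with Sptb (0.941 to 0.970 leaving out each library, 0.929 without the 2 farthest) and of Sptb with Ppbp (0.637 to 0.854, and 0.658) kept an adjusted p under 0.05 under all 15 alternatives.

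The count of 240 rows called by edgeR (169 higher, 71 lower) became 114 under TMM (8 higher, 106 lower), 103 under median of ratios (12 higher, 91 lower) and 377 with DESeq2, which was run on all 417 rows without edgeR's filter (edgeR without the filter called 305), and ran from 11 (without C105F/+ 2) to 280 leaving out each library, with 13 without C105F/+ 5 and 17 without C105F/+ 6. Replicate numbers 2 to 6 occur in both genotypes. Deviations of same-numbered libraries correlated at -0.125 to 0.196, and 1 of 5 C105F/+ libraries correlated best with its own number. These values come from selected rows and the labels give no batch, so whether the numbers pair the libraries is not known. With the replicate block, edgeR called 0 rows (166 at an unadjusted p under 0.05; Alas2 1.40, Sptb 1.54, adjusted p = 0.0899 and 0.0876), and the sign-flip test of Ppbp gave 1.45 (exact p = 0.0625, the smallest it can give). The largest counting error of the members was 19.6%, for Ppbp in wild type 4, which had 26 reads and a size factor of 0.955. The cause of these changes was not tested.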
